A study of Rattus norvegicus with 28 samples.

Results

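The prefrontal cortex libraries of vehicle-injected rats were described across all annotated genes. They are the 4 libraries whose treatment label reads vehicle for both injections, of 28 libraries in 7 groups. The animals were adult male Sprague-Dawley rats, an outbred stock, aged 8 weeks on arrival. Each received 5% Tween-80 without ketanserin and then saline without psilocybin, both intraperitoneally, and the tissue was taken 24 h afterwards. Every animal was therefore injected and handled, and no uninjected animals were used here. RNA was extracted with a column kit, selected by its poly-A tail and turned into directional libraries with dUTP in the second strand. The labels call the libraries biological replicates and name no area within the prefrontal cortex, no litter and no dissection batch. Replicates 1 to 4 are names given in accession order and carry no other meaning.

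The prefrontal cortex is the front part of the cerebral cortex and serves planning, working memory and the control of emotion. Its excitatory pyramidal neurons release glutamate and lie in layers that are told apart by transcription factors and channels. They are held in check by GABA neurons of several classes, and astrocytes, oligodendrocytes, microglia and vessel cells make up the rest of the tissue. A bulk library averages all of these cells, so that fewer cells of a type and less RNA per cell cannot be told apart in any value given here.

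Levels of different genes are given as FPKM, since only a value per length can be set between genes. FPKM are the authors' fragment counts divided by gene length and by a library size other than the plain count total. The spread of 1 gene between libraries is given as CPM, its counts relative to the library total scaled by a TMM factor, and as the CV, the SD over the mean of the 4 libraries. The 4 libraries held 14125508, 16398573, 15389834 and 14551348 counts over 36387 gene records, of which 3842 had no gene name. Their TMM factors were 1.05, 0.922, 1.03 and 1.00. Between 95.8 and 96.0% of counts fell on protein-coding records. Genes of the mitochondrial genome took 6.98, 10.3, 7.74 and 9.71% of counts, highest in replicate 2. A count of 0 allows up to 3 counts, or 0.188 to 0.206 CPM in these libraries, and that limit covers counting error only.

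Replicate 2 stood apart from the other libraries, though less from replicate 4. On log2 CPM over the 15199 records with a mean of at least 1 CPM, the first principal component held 65.8% of the variance, and the scores of replicates 1 to 4 on it were -27.8, 58.2, -36.8 and 6.40. Pearson's r between libraries across these genes, which are not independent replicates, was 0.941 to 0.969 for pairs with replicate 2 and 0.970 to 0.980 for the other pairs. Replicates 2 and 3 lay farthest apart, with 2254 records differing by 2-fold or more, and replicates 1 and 3 lay closest, with 485. Replicates 2 and 4, with an r of 0.969 and 1112 such records, were nearly as close as replicates 3 and 4, with 0.970 and 1041. No 2 libraries were copies, since the chi-square per gene was 10.3 or more in every pair. The lists and genes that replicate 2 sets most apart are given below with and without it.

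At a mean of at least 1 FPKM, 14491 of the 36387 records were detected, or 39.8%. They included 12376 of 22293 protein-coding records (55.5%), 144 long intergenic noncoding RNAs and 1250 unnamed assembled transcripts. A further 13093 records had no count in any of the 4 libraries. The median level of a detected record was 8.65 FPKM, and the central 90% of them ran from 1.25 to 120 FPKM. Only 6711 records reached 10 FPKM, 884 reached 100 FPKM and 37 reached 1000 FPKM, 13 of the last from the mitochondrial genome.

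The most abundant RNAs were mitochondrial. Mt-atp6, a subunit of the ATP synthase, had 11136, 21837, 12716 and 18002 FPKM in replicates 1 to 4. Mt-co1, the catalytic subunit of cytochrome c oxidase, had 11176, 17237, 12299 and 15321 FPKM. Both were highest in replicate 2 and lowest in replicate 1, and the mean of Mt-atp6 was 15923 ± 4916 FPKM (SD, n = 4). Mt-cox3 and Mt-co2, the other mitochondrially encoded oxidase subunits, averaged 12224 and 10848 FPKM. Mt-cytb of complex III averaged 7538 FPKM and Mt-nd1 of complex I 6899 FPKM. The 13 protein genes did not share 1 level: Mt-nd4, also of complex I, was the lowest at 377 ± 70.5 FPKM, and Mt-atp8, whose record overlaps that of Mt-atp6, was at 899 ± 203 FPKM. The other 2 long records of that genome, AY172581.9 and AY172581.24, have no gene symbol and were at 4291 and 2950.1 FPKM after poly-A selection. Of the remaining 22 short mitochondrial records, each under 80 bases, the highest was AY172581.2 at 428 ± 119.8 FPKM and 7 were listed at 0.

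Among named nuclear genes, Camk2n1, Apoe and Nrgn had the highest mean levels. Camk2n1, an inhibitor of the kinase CaMKII, led with 3305, 3136, 3279.9 and 3960.1 FPKM. Its record (chromosome 5, bases 156876706 to 156878486, rn6) counts only 409 bases of sequence. Apoe, the lipid carrier made mainly by astrocytes, had 2175, 3494, 2050.1 and 2435 FPKM. Nrgn, the calmodulin-binding protein neurogranin of forebrain excitatory neurons, had 1653, 3312, 1809.9 and 2422 FPKM. Apoe and Nrgn were again highest in replicate 2, whereas Camk2n1 was highest in replicate 4 and its libraries lay within 1.26-fold. Cst3, a secreted protease inhibitor, averaged 2256 ± 614 FPKM. The glycolytic enzymes Gapdh and Aldoa averaged 1856 ± 471 FPKM and 1512 ± 352 FPKM, and the brain creatine kinase Ckb 1349 ± 388 FPKM. Calm3, which encodes calmodulin, averaged 1744 ± 309.9 FPKM.

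The other nuclear records among the 15 highest were of mixed kinds. Zwint, named for its part at the kinetochore and abundant in neurons, averaged 1688 ± 48.3 FPKM and had a CV of 2.79%, the lowest of the 15. Tmsb4x, an actin-sequestering peptide, averaged 1592 ± 547 FPKM, the peptidyl-prolyl isomerase gene Ppia 1391 ± 325 FPKM and the 14-3-3 gene Ywhah 1173 ± 103 FPKM. LOC100360645, annotated as similar to ubiquitin B, averaged 1327 ± 294 FPKM. Hba1, a haemoglobin alpha gene of red blood cells, averaged 1327 ± 644 FPKM. AABR07065531.1 is an 80-base record of the miRNA class (chromosome 6, bases 133662524 to 133662603, rn6) and averaged 1234 ± 588 FPKM. It reached that level from 62.8 to 172 CPM only, because the length in its FPKM is so short.

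**Figure D1:**
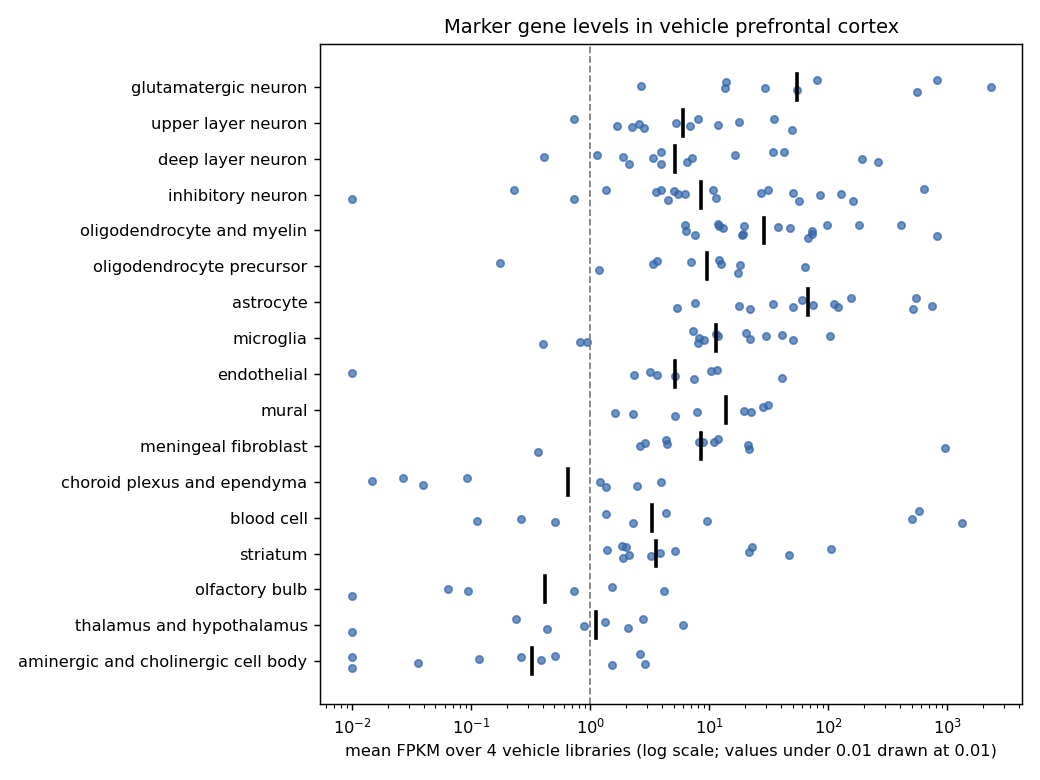
Mean FPKM over the 4 vehicle libraries (log axis) of each marker gene, 1 row per list, with the median of each list as a bar and a dashed line at 1 FPKM. Astrocyte and glutamatergic neuron lists had the highest medians, 66.7 and 54.97 FPKM. The medians of the choroid plexus, olfactory bulb and aminergic cell body lists lay below 1 FPKM.

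The tissue label was checked against cell type markers, and the cortical ones were present. Slc17a7, the vesicular glutamate transporter of cortical pyramidal neurons, averaged 809 ± 106 FPKM, whereas Slc17a6, the transporter used more in thalamus and brainstem, averaged 2.67 ± 0.713 FPKM. Camk2a, the alpha subunit of CaMKII, averaged 551 ± 197 FPKM. The cortical transcription factor Tbr1 averaged 29.5 ± 9.01 FPKM. All 9 measured markers of glutamatergic neurons passed 1 FPKM, with a list median of 54.97 FPKM, and Neurod2 was not among the records. Of 20 markers of inhibitory neurons, 17 passed 1 FPKM. Sst, the somatostatin gene, was the highest at 637 ± 155 FPKM, ahead of Pvalb, the parvalbumin gene of fast-spiking cells, at 159.9 ± 46.9 FPKM and Vip at 31.2 ± 0.958 FPKM. Lamp5, a marker of superficial interneurons, averaged 127 ± 25.4 FPKM. Gad1 and Gad2, the enzymes that make GABA, averaged 57.1 ± 3.87 FPKM and 27.1 ± 5.19 FPKM. Adarb2 and Chodl, markers of smaller classes, were under 1 FPKM, at 0.732 and 0.231. Npy, the neuropeptide Y gene of many cortical interneurons, is listed at 0 counts in all 4 libraries. Whether a listed 0, here and for other genes below, reflects absent RNA or the annotation and placement of reads was not tested.

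Markers of both cortical depths were detected. Upper layer markers ran from Calb1, a calcium buffer, at 49.8 ± 4.69 FPKM down to the netrin receptor gene Unc5d at 0.723 ± 0.609 FPKM, with 11 of 12 at 1 FPKM or more. The transcription factors Cux2 and Rorb, used to mark layers above layer 5, averaged 17.8 ± 6.76 FPKM and 1.67 ± 0.623 FPKM. Deep layer markers ran from Pcp4, a calmodulin regulator, at 259 ± 107 FPKM down to Ntsr1, the neurotensin receptor of corticothalamic cells, at 0.407 ± 0.24997 FPKM, with 13 of 14 at 1 FPKM or more. Fezf2 and Bcl11b, transcription factors of subcortically projecting neurons, averaged 33.96 ± 7.38 FPKM and 6.44 ± 1.27 FPKM.

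Glia and vessels were well represented. All 14 astrocyte markers passed 1 FPKM, led by the calcium-binding protein gene S100b at 741 ± 127 FPKM and with Gfap, the astrocyte filament, at 155 ± 18.4 FPKM. Slc1a2, the main glial glutamate transporter, averaged only 59.4 ± 39.2 FPKM, below its relative Slc1a3 at 112 ± 13.05 FPKM. Sox9 was the lowest astrocyte marker at 5.37 ± 0.928 FPKM. All 18 oligodendrocyte and myelin markers passed, from Mbp, myelin basic protein, at 819.8 ± 432 FPKM down to Ermn at 6.22 ± 1.93 FPKM. Precursor cells were marked by Olig1 at 63.4 ± 23.1 FPKM and Pdgfra at 7.08 ± 1.04 FPKM, and Neu4 was lowest at 0.174 ± 0.171 FPKM. Of 15 microglial markers 12 passed, led by the protease gene Ctss at 104 ± 19.4 FPKM, and Ptprc, the pan-leukocyte CD45 gene, was at 0.404 ± 0.178 FPKM. The glucose transporter gene Slc2a1 of the blood-brain barrier averaged 40.96 ± 5.79 FPKM, the endothelial receptor Kdr 2.31 ± 0.369 FPKM, and Cldn5, its tight junction gene, is listed at 0 counts. The value of Cldn5 carries the same doubt as that of Npy. Rgs5 and Abcc9 bounded the mural cells at 31.3 ± 14.1 FPKM and 1.63 ± 0.247 FPKM.

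Markers of neighbouring structures were also read. Ptgds, which meninges, choroid plexus and oligodendrocytes all make, averaged 951 ± 124 FPKM, and the collagen gene Col1a1 averaged 11.8 ± 2.47 FPKM, with Slc47a1 lowest in the meningeal list at 0.364 ± 0.315 FPKM. Choroid plexus RNA was scarce. Ttr, transthyretin, its most abundant product, had 0.284, 2.14, 1.49 and 1.45 FPKM, a summed list level of 8.604, 8.52, 7.397 and 11.9 FPKM was found in replicates 1 to 4, and Folr1 was lowest at 0.0147 ± 0.0295 FPKM. Of the defining striatal genes, the dopamine receptor genes Drd1 and Drd2 averaged 2.0001 ± 0.655 FPKM and 1.84 ± 0.193 FPKM. Ppp1r1b (DARPP-32), which deep cortical neurons also express, averaged 104 ± 29.5 FPKM, and Rarb was the lowest striatal marker at 1.38 ± 0.267 FPKM. In the olfactory bulb list Doc2g was highest at 4.197 ± 0.578 FPKM and S100a5 is listed at 0. In the thalamic and hypothalamic list the kinase gene Prkcd was highest at 6.02 ± 1.298 FPKM, and Pmch is listed at 0. Genes of aminergic cell bodies lay low: Slc18a2, the vesicular monoamine transporter, averaged 2.89 ± 0.594 FPKM, the serotonin-making enzyme Tph2 0.508 ± 0.298 FPKM, the serotonin transporter Slc6a4 0.0354 ± 0.0254 FPKM, and the noradrenaline transporter Slc6a2 is listed at 0. The labelled sex was met by RNA of Y-linked genes in all 4 libraries. Eif2s3y, a translation factor subunit, had 52.8, 57.3, 55.2 and 50.2 CPM and differed by 1.14-fold at most, Uty had 0.61999 ± 0.189 FPKM, Usp9y is listed at 0, and Xist has no record in the files.

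Neuromodulator receptors were read as families. Of 14 serotonin receptor genes, 7 passed 1 FPKM. Htr2a, the receptor through which psilocin acts and that ketanserin blocks, had 30.5, 34.9, 39.3 and 31.97 CPM and was the highest at 7.28 ± 0.784 FPKM. Its 4 libraries lay within 1.29-fold. Htr3a, the ion channel receptor of an interneuron class, followed at 5.45 ± 1.01 FPKM, ahead of Htr6 at 4.49 ± 1.13 FPKM and Htr1a, the inhibitory receptor, at 4.44 ± 1.87 FPKM. Htr2c and Htr5a averaged 3.34 ± 1.16 FPKM and 2.87 ± 1.104 FPKM. From Htr3a down to Htr5a, each gene differed from the next by less than the sum of their SDs. Htr1b had 2.36, 1.92, 5.73 and 1.85 CPM and stood out in replicate 3, with a ratio of highest to lowest of 3.09 that fell to 1.28 without it. Htr2b and Htr5b were at 0.0155 and 0.02298 FPKM, and Htr3b is listed at 0. Among dopamine receptors, Drd5 averaged 0.469 ± 0.364 FPKM and Drd3 is listed at 0.

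Adrenergic and cholinergic receptors reached higher levels. Adra1d, an alpha-1 adrenoceptor, was the highest of 9 at 46.3 ± 7.85 FPKM, followed by Adra2c at 21.1 ± 5.42 FPKM and Adrb1 at 20.9 ± 4.702 FPKM, while Adra2b was at 0.00823 ± 0.00951 FPKM. Adra1a varied most in that family, with 2.16, 0.86005, 4.84 and 2.95 CPM. Chrm1, the main cortical muscarinic receptor, led 14 acetylcholine receptor genes at 91.03 ± 9.11 FPKM and had 149, 186, 159.5 and 159 CPM. The nicotinic subunits Chrnb2 and Chrna4 averaged 21.3 ± 7.23 FPKM and 12.9 ± 1.13 FPKM, and Chrna7 1.95 ± 1.48 FPKM. Chrna7 varied most of the 10 members at 1 CPM or more, with 6.75, 1.59, 12.1 and 3.499 CPM, and Chrm5 was lowest at 0.0336 ± 0.0409 FPKM. In the opioid and cannabinoid family, Cnr1, the cannabinoid receptor of GABA and glutamate terminals, had 135, 108, 177 and 106 CPM. Oprl1 and Oprd1 averaged 6.43 ± 1.09 FPKM and 2.57 ± 1.37 FPKM. Oprm1, the mu receptor, was near 0 at 0.0684 ± 0.0795 FPKM, as was Oprk1, the kappa receptor, at 0.0193 ± 0.0129 FPKM.

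Fast transmission genes spanned a wide range. Grin1, the obligatory NMDA receptor subunit, averaged 147 ± 13.8 FPKM, whereas Grin2a and Grin2b, the forebrain partner subunits, averaged 3.54 ± 2.93 FPKM and 4.14 ± 1.71 FPKM, and Grin3b was lowest at 1.39 ± 0.424 FPKM. Grin1 varied little, with 788, 847, 683 and 788 CPM. Grin2a varied most, with 15.5, 5.89, 33.5 and 6.72 CPM, and was highest in replicate 3. Grik5, a kainate receptor subunit, led the AMPA and kainate list at 100.3 ± 18.4 FPKM, ahead of the AMPA subunits Gria2 at 52.9 ± 10.4 FPKM, Gria3 at 45.6 ± 4.803 FPKM and Gria1 at 33.2 ± 11.8 FPKM. Grik1 was the lowest at 4.77 ± 0.382 FPKM and Grik3 the most variable, with a CV of 44.2%. Of the metabotropic receptors, Grm2 averaged 27.8 ± 6.57 FPKM, Grm5 4.96 ± 3.99 FPKM and Grm6 0.514 ± 0.144 FPKM, and Grm5 had the widest CV of them at 81.1%. Gabbr1, a subunit of the metabotropic GABA receptor, averaged 191 ± 8.198 FPKM and had 1305, 1375, 1256 and 1289 CPM, a ratio of 1.09. Gabrq was the lowest GABA receptor gene at 0.00804 ± 0.0161 FPKM. Gabrb2, a beta subunit of the ion channel receptor, had 9.65, 5.89, 29.4 and 6.38 CPM. Replicate 3 alone was high for Gabrb2, and the ratio of 4.99 came down to 1.64 without it.

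Among sodium channel genes, the pore subunits Scn2a and Scn8a of pyramidal axons averaged 29.5 ± 6.42 FPKM and 17.4 ± 9.51 FPKM. Scn1a, the pore subunit of interneurons, had 48.3, 34.1, 82.1 and 43.7 CPM, highest in replicate 3. Scn10a, a channel of sensory neurons, was at 0.00491 FPKM. Of 17 measured neuropeptide and granin genes, 16 passed 1 FPKM. Cck, cholecystokinin, was highest at 987 ± 239.6 FPKM, followed by Sst and by the granins Chgb at 219 ± 16.05 FPKM and Chga at 165 ± 39.8 FPKM. Vip was the steadiest of them, with 45.7, 47.2, 48.4 and 48.9 CPM. Cartpt varied most, with 0.8099, 14.8, 1.196 and 0.892 CPM, so that replicate 2 alone was high, and its ratio of 18.3 was 1.48 without that library. Of the 15 synaptic vesicle genes, Syp was highest at 1075 ± 198 FPKM, Sv2b lowest at 79.8 ± 12.8 FPKM and Cplx2 the most variable with 672, 239.7, 624 and 625 CPM, here low in replicate 2, with a ratio of 2.803 that was 1.08 without it. The calmodulin genes Calm3 and Calm2 encode the same protein and stood at 1744 ± 309.9 FPKM and 548 ± 38.4 FPKM. Calm3 had 1646, 2434, 1797 and 1999 CPM, highest in replicate 2.

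The median spread between the 4 libraries was larger than counting error alone. With 1 library per biological replicate, differences between animals, dissections and library preparations cannot be told apart. Over the 15199 records with a mean of at least 1 CPM, the median CV was 0.197, against 0.0593 that counting alone gives at the same counts. The median ratio of the highest to the lowest library was 1.55. At least 2-fold apart were 4098 records, or 27.0% of those examined, and 783 were at least 5-fold and 231 at least 10-fold apart, where a library under 3 counts was set to 3 counts. Without replicate 2, 2055 records were at least 2-fold apart and the median CV was 0.134. The common biological coefficient of variation, an edgeR estimate with counting error taken out, was 0.260, and 0.192 without replicate 2. The edgeR estimates per gene ran from 0.1497 to 0.442 over the central 90% of records. They are drawn towards the trend over all genes, so estimates from each gene alone can lie outside these bounds.

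The median CV depended on level up to about 30 CPM. The median CV was 0.385 among 2440 records at 1 to 3 CPM, 0.253 at 3 to 10 CPM and 0.179 at 10 to 30 CPM. It then stayed near 0.14, at 0.143 for 30 to 100 CPM, 0.138 for 100 to 300 CPM and 0.139 for the 531 records at 300 CPM or more. Counting alone gave 0.194 in the lowest class and 0.0116 in the highest. The share at least 2-fold apart was 68.0% in the lowest class. It went on falling above 30 CPM, from 9.40% at 30 to 100 CPM to 6.11% at 100 to 300 CPM and 3.95% in the highest class.

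**Figure D2:**
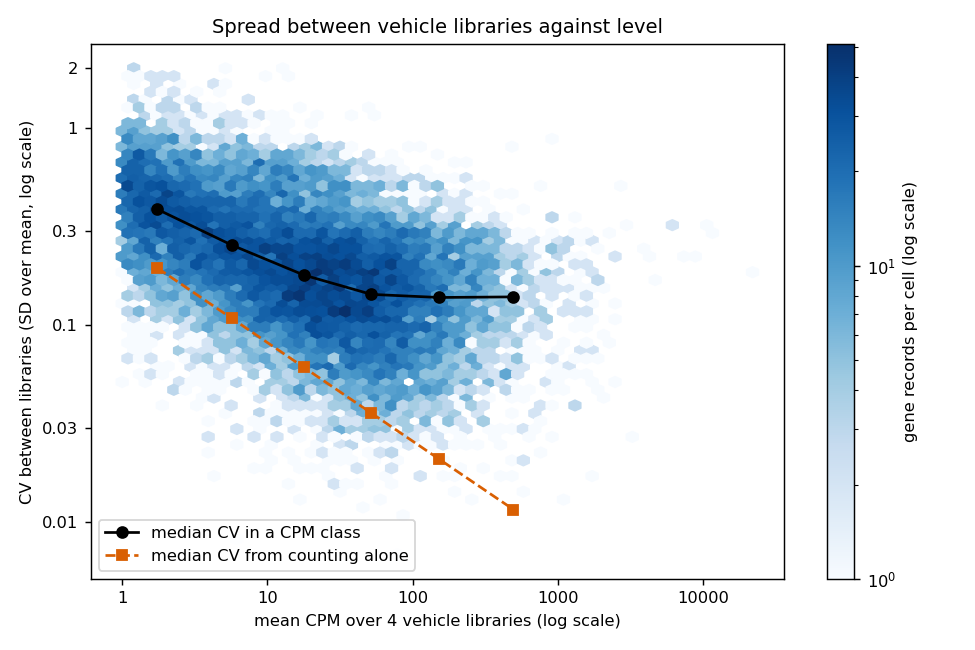
CV between the 4 vehicle libraries (log axis) against mean CPM (log axis) for 15199 gene records, shaded by records per cell, with the median CV of 6 level classes as black points and the median CV from counting alone as squares. The black line levels off near 0.14 above 30 CPM, while the counting line goes on down to 0.0116.

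Some genes hardly varied. Among 4034 named records with a mean of at least 50 CPM, Hadhb, a subunit of the mitochondrial trifunctional enzyme of fatty acid oxidation, had the lowest CV at 0.684%, with 86.7, 85.6, 86.2 and 85.4 CPM. Nicn1, Ccni and Klc1 followed, with CVs of 1.11%, 1.25% and 1.28%, and Klc1, the kinesin light chain, was the most abundant of the 10 steadiest with 1146, 1139.6, 1167 and 1169 CPM. The others were Rnf34, the neurofilament gene Nefl, Ttc7b, Sppl3, the dynactin gene Dctn5 and the chromatin remodeller Smarcc2, all with CVs of 1.68% or less. Genes that serve as references in PCR were not all as steady. Actb had 1015, 1069.6, 945 and 1011 CPM and a CV of 5.05%, Eef1a1 a CV of 6.81% and Tfrc a CV of 6.42%. Gapdh had 1575, 2578, 1590.3 and 1809.8 CPM, and its CV was 25.01%. Ppia, Rpl13a and Rplp0 had CVs of 22.96%, 29.6% and 24.2%, each with replicate 2 highest. Gusb averaged 1.57 ± 0.576 FPKM.

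Replicate 2 was most often the highest and most often the lowest library. It was the highest library for 36.6% of the 15199 records and the lowest for 37.1%, against 21.1 and 26.5% for replicate 1, 27.0 and 21.0% for replicate 3, and 15.3 and 15.3% for replicate 4. Of the 4098 records at least 2-fold apart, 2295 (56.0%) were lowest in replicate 2 and 1708 (41.7%) were highest in replicate 3.

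The deviation of a gene in each library moved with its length. Here a deviation is log2(CPM + 0.5) in 1 library minus the mean of that gene over the 4 libraries. Spearman's rho across genes between deviation and length was 0.325, -0.367, 0.278 and -0.0995 in replicates 1 to 4. In replicate 2 the median deviation was 0.32 for records of over 500 to 1000 bases, 0.00 for those of over 2000 to 3000 bases and -0.27 above 6000 bases. Replicates 1 and 3 ran the other way, at 0.14 and 0.22 above 6000 bases. Long-record genes were thus low in replicate 2 and short-record genes high, and most of the widest lists below are also given with the median deviation of each member's length class subtracted.

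**Figure D3:**
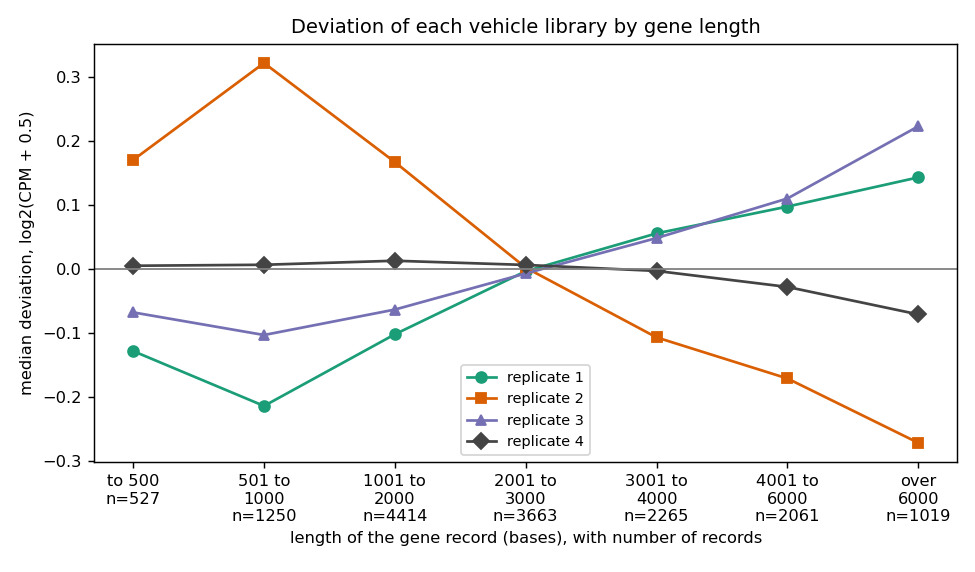
Median deviation of each vehicle library, in log2(CPM + 0.5) units, in 7 classes of gene record length in bases, with the number of records under each class. Replicate 2 goes down from 0.32 at over 500 to 1000 bases to -0.27 above 6000 bases, replicates 1 and 3 go up, and replicate 4 stays within 0.07 of 0.

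Of 42 lists, 17 had a range of at least 0.5 log2 units between their highest and lowest library, 8 of them highest in replicate 2 and 8 in replicate 3. With the length class subtracted 9 lists did, and without replicate 2 there were 4, without replicate 3 there were 11. Among the lists highest in replicate 2, the blood and neuropeptide lists each count a member, S100a9 and Cartpt, that reached 1 CPM only through that library.

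**Figure D4:**
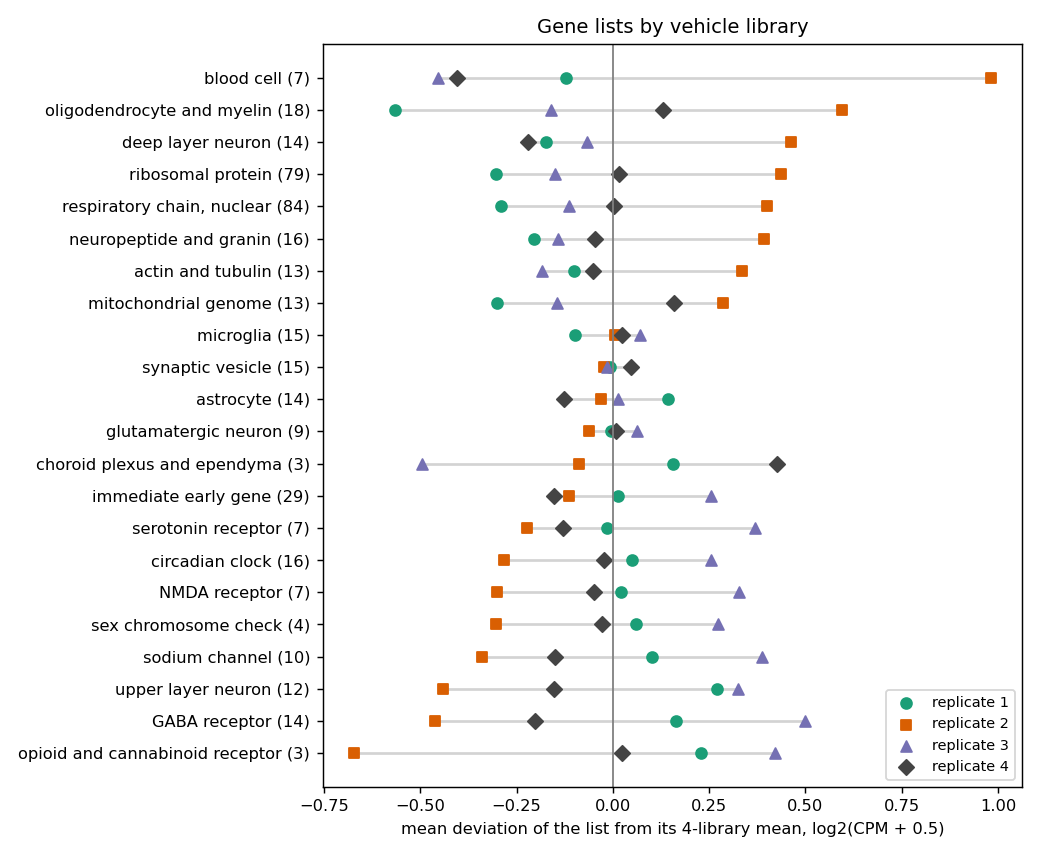
Mean deviation of 22 gene lists in each vehicle library, in log2(CPM + 0.5) units from the mean of the 4 libraries, with the number of members at 1 CPM or more in brackets and a grey line over each range. Blood, myelin and deep layer lists are highest in replicate 2, at 0.98, 0.59 and 0.46, and the GABA receptor and upper layer lists are lowest there, at -0.46 and -0.44.

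Myelin genes differed between libraries almost throughout their list. Their mean deviation was -0.56, 0.59, -0.16 and 0.13 in replicates 1 to 4, and -0.56, 0.59, -0.16 and 0.13 with the length class subtracted. Without replicate 2 the list stood at -0.37, 0.04 and 0.33 in replicates 1, 3 and 4. Of 18 members, 16 (88.9%) were at least 2-fold apart, where the share over all records was 27.0%, and 15 were highest in replicate 2 and 16 lowest in replicate 1, where 36.6 and 26.5% of all records were. Mbp had 1471, 4800.0, 1988 and 2958 CPM, and its ratio of 3.26 was 2.01 without replicate 2. Mag, an adhesion protein of the innermost myelin wrap, had 97.6, 343, 134 and 182 CPM, a ratio of 3.51 that was 1.87 without replicate 2. The order replicate 2, replicate 4, replicate 3, replicate 1 held for both. Enpp2, which oligodendrocytes, vessels and choroid plexus all express, had 50.1, 48.1, 54.7 and 55.4 CPM and differed by 1.15-fold at most. The precursor list was narrower, at -0.18, 0.08, -0.04 and 0.14, with Pdgfra at 54.3, 39.4, 51.5 and 42.3 CPM, lower in replicate 2 than in replicate 1. Bmp4 varied most there, with 5.67, 2.51, 9.75 and 11.3 CPM, lowest in replicate 2. Of 9 precursor members 5 were at least 2-fold apart, where the share over all records was 27.0%. Highest in replicate 2 were 4 and lowest 4, where 36.6 and 37.1% of all records were. At a mean of at least 10 CPM the precursor list stood at 0.24 in replicate 2, and by its median at -0.24 in replicate 3.

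The deep and upper layer lists went in opposite directions in replicate 2, whereas both were negative in replicate 4. Without replicate 2, both lists were highest in replicate 3 and lowest in replicate 4. The deep layer list had deviations of -0.17, 0.46, -0.07 and -0.22, and -0.20, 0.52, -0.13 and -0.20 with the length class subtracted. Without replicate 2 it stood at -0.02, 0.09 and -0.07 in replicates 1, 3 and 4. Of its 14 members 9 were highest in replicate 2 and none lowest there, where the shares over all records were 36.6 and 37.1%, and 7 were at least 2-fold apart, where the share over all records was 27.0%. Pcp4 had 123, 275, 138 and 149 CPM, and its ratio of 2.24 was 1.22 without replicate 2. Nxph4, a neurexin ligand of the deepest layer, had 2.09, 6.88, 1.64 and 2.68 CPM, a ratio of 4.21 that was 1.64 without replicate 2. Foxp2, a layer 6 transcription factor, had 4.59, 11.97, 8.05 and 6.66 CPM. All of these were highest in replicate 2, but Etv1 of layer 5 was highest in replicate 3, with 115, 109, 141 and 101 CPM. The upper layer list had deviations of 0.27, -0.44, 0.32 and -0.15, and 0.25, -0.41, 0.28 and -0.14 with the length class subtracted. Without replicate 2 it stood at 0.12, 0.18 and -0.30 in replicates 1, 3 and 4. By its median in place of its mean, the upper layer list stood at 0.34, -0.21, 0.26 and -0.02 in replicates 1 to 4. Of its 12 members 7 were lowest in replicate 2 and 1 highest there, where the shares over all records were 37.1 and 36.6%. Cux2 had 129, 44.99, 104 and 91.1 CPM, and its ratio of 2.86 was 1.41 without replicate 2. Rasgrf2, an exchange factor of layer 2 and 3 neurons, had 20.8, 4.76, 18.6 and 10.1 CPM, a ratio of 4.36 that was 2.06 without it. Lhx2 and Calb1 varied less, within 1.197-fold and 1.26-fold, and Unc5d varied most, with 2.902, 0.728, 4.59 and 0.686 CPM. Gene length and the myelin, blood and layer lists all had replicate 2 as the highest or lowest library. For length and myelin, replicate 1 lay nearly as far out on the other side, with a rho of 0.325 and a deviation of -0.56. The part of each of these in the others was not tested.

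General neuron, astrocyte and microglia lists were narrow. The glutamatergic list had deviations of -0.01, -0.06, 0.06 and 0.01, although Camk2a, its most variable member, had 1181, 446, 932 and 832 CPM, a ratio of 2.65 that was 1.42 without replicate 2. The inhibitory neuron list stood at 0.06, -0.12, 0.06 and -0.00 and the synaptic vesicle list at -0.01, -0.02, -0.01 and 0.05. The astrocyte list stood at 0.14, -0.03, 0.01 and -0.13, with Slc1a2 the most variable at 54.1, 27.3, 104 and 28.8 CPM, and the microglia list at -0.10, 0.01, 0.07 and 0.02, with Ptprc the most variable at a CV of 44.8%. None of the 8 measured endothelial markers at 1 CPM or more was 2-fold apart. In the mural list, Acta2 of arterial smooth muscle had 15.8, 46.97, 19.8 and 28.5 CPM, high in replicate 2, and Rgs5 of pericytes had 32.6, 8.93, 34.8 and 27.9 CPM, low in replicate 2. Without replicate 2 their ratios of 2.97 and 3.896 were 1.81 and 1.25.

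Red blood cell RNA was about 2 times as high in replicate 2 as in the other libraries. The blood list had deviations of -0.12, 0.98, -0.46 and -0.41, and 0.02, 0.77, -0.39 and -0.41 with the length class subtracted. Without replicate 2 it stood at 0.24, -0.12 and -0.12 in replicates 1, 3 and 4. Of its 7 members at a mean of 1 CPM or more, S100a9 reached that mean only through replicate 2. The first deviations above include it. The other 6 were all highest in replicate 2 and at least 2-fold apart, where the shares over all records were 36.6 and 27.0%. At a mean of at least 10 CPM, which leaves S100a9 out, the list stood at -0.06, 0.90, -0.48 and -0.37 in replicates 1 to 4. Hba1 had 617, 1287, 521 and 571 CPM, with a ratio of 2.47 that was 1.19 without replicate 2. Hbb, beta haemoglobin, had 328, 643, 276 and 299.9 CPM, with 2.33 and 1.19. Alas2, the haem-making enzyme of red cell precursors, had 7.15, 13.6, 4.72 and 5.01 CPM, and S100a9 of neutrophils had 0.405, 3.64, 0.315 and 0.549 CPM. Without replicate 2 their ratios of 2.87 and 11.6 were 1.52 and 1.74. The lymphocyte genes Cd79a and Cd3e were at 0.2599 and 0.113 FPKM. Summed over the list, the level was 2035, 4161, 1658 and 1857 FPKM in replicates 1 to 4, nearly all of it haemoglobin.

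Genes of ribosomes and respiration were high or low in the same libraries. The ribosomal protein list had deviations of -0.30, 0.44, -0.15 and 0.02, with 71 of 79 members highest in replicate 2 and 63 lowest in replicate 1, where the shares over all records were 36.6 and 26.5%. Rps29, the most abundant, averaged 806 ± 290.4 FPKM. The nuclear respiratory chain list had -0.29, 0.40, -0.11 and 0.00, with 75 of 84 highest in replicate 2, against the same 36.6%, and Cox4i1, a cytochrome oxidase subunit, was the highest at 987 ± 268 FPKM. These are short records, with medians of 630.0 and 808.5 bases, and with the length class subtracted replicate 2 stood at 0.21 and 0.20, and replicate 1 at -0.15 and -0.16. Without replicate 2 the ribosomal list stood at -0.16, -0.00 and 0.16 in replicates 1, 3 and 4, and the respiratory list at -0.16, 0.02 and 0.14. The mitochondrial genome list had -0.30, 0.29, -0.14 and 0.16, and -0.15, 0.06, -0.07 and 0.15 after that subtraction. Rps27a departed from the ribosomal pattern, with 146, 269, 184 and 86.2 CPM, lowest in replicate 4, as did Rpl7a, with 8.099, 11.4, 33.5 and 55.1 CPM. Atp5f1, an ATP synthase subunit, departed from the respiratory pattern, with 1.69, 51.1, 33.5 and 2.47 CPM, high in replicates 2 and 3. Many ribosomal protein genes have near-identical copies among which reads can be divided, so values of single members are uncertain.

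Receptor and channel lists were mostly low in replicate 2 and high in replicate 3. GABA receptor genes had deviations of 0.16, -0.46, 0.50 and -0.20, and 0.16, -0.45, 0.48 and -0.20 with the length class subtracted. Without replicate 2 they stood at 0.01, 0.35 and -0.36 in replicates 1, 3 and 4. Of 14 members 9 were lowest in replicate 2 and 9 highest in replicate 3, where the shares over all records were 37.1 and 27.0%. Gabra2, an alpha subunit, had 30.4, 8.799, 40.3 and 22.4 CPM, and its ratio of 4.58 was 1.798 without replicate 2. The sodium channel list had 0.10, -0.34, 0.39 and -0.15, and its range narrowed to 0.02, -0.18, 0.25 and -0.11 with the length class subtracted, its records having a median length of 6835.0 bases. The serotonin receptor list had -0.02, -0.22, 0.37 and -0.13 over 7 members and the NMDA receptor list 0.02, -0.30, 0.33 and -0.05. With the length class subtracted they had 0.00, -0.25, 0.37 and -0.13, and -0.06, -0.15, 0.24 and -0.03. For both the sign in replicate 2 depended on the summary: the NMDA list was at 0.13 there, and at -0.16 in replicate 3, by its median in place of its mean, and the serotonin list was at 0.08 there when members needed 10 CPM. The opioid and cannabinoid list rested on 3 members, at 0.23, -0.67, 0.42 and 0.02, and at 0.00, 0.20 and -0.20 in replicates 1, 3 and 4 without replicate 2. Adrenergic receptors were level, at -0.01, -0.04, 0.02 and 0.03.

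Immediate early genes are switched on within minutes of neuronal firing by the factors CREB and SRF, which bind cAMP response elements and CArG boxes. They are the usual readout of recent activity and handling, and their baseline was therefore read gene by gene. Of 30 listed genes 29 had a record, and 27 passed 1 FPKM. For 23 of the 30, RefSeq (GRCr8) gave a window before the gene start, and the windows of 4 members that differ in the elements they hold are shown, 250 bases before the start, 5′ to 3′ on the strand of the gene. Capitals mark the CArG box and the core of the cAMP response element, TGACG, on either strand (CGTCA).
Egr1: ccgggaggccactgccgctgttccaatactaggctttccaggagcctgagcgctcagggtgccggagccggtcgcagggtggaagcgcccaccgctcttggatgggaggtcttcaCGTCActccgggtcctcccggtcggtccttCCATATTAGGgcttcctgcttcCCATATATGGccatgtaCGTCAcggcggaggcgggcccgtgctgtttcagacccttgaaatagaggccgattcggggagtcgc
Nr4a1: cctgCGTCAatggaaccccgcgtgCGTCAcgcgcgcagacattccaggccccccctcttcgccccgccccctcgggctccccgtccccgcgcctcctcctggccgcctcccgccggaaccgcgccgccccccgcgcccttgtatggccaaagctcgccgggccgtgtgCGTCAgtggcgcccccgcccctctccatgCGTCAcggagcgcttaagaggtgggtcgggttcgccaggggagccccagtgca
Junb: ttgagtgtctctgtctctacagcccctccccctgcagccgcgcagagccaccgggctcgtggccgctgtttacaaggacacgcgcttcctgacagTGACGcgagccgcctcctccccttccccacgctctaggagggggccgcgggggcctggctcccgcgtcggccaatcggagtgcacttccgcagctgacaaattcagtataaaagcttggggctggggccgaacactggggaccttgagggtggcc
Egr2: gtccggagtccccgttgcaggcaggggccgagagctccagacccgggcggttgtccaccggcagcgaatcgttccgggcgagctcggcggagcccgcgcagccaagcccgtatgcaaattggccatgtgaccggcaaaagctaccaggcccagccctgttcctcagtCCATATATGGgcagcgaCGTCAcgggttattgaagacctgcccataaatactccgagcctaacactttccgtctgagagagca
The windows lie at chr18:26736828-26737077 on the plus strand for Egr1, chr7:134259888-134260137 on the plus strand for Nr4a1, chr19:40080876-40081125 on the plus strand for Junb and chr20:21054442-21054691 on the minus strand for Egr2. The Egr1 window holds 2 CArG boxes and 2 core elements, that of Nr4a1 4 core elements, that of Junb 1 core element, and that of Egr2 1 of each. A core element stands in windows of 15 of the 23 genes and in 18.2% of all 33469 windows. The palindrome TGACGTCA stands in those of 4 genes and in 1.59% of all windows, and the CArG box in those of 3 genes (Egr1, Egr2 and Dusp5) and in 1.5%. Every full palindrome also counts as a core element.

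The 4 genes differed in level and in spread. Egr1, a zinc finger factor, had 137, 133, 153 and 119 CPM and averaged 42.5 ± 4.102 FPKM. Nr4a1, an orphan nuclear receptor, had 51.6, 61.5, 74.1 and 63.8 CPM and averaged 23.2 ± 3.31 FPKM. Junb, a partner of Fos, had 36.7, 64.1, 83.7 and 48.2 CPM and averaged 32.1 ± 11.1 FPKM. Egr2, a zinc finger factor with a part in myelination of peripheral nerve, had 2.02, 0.662, 2.83 and 1.24 CPM and averaged 0.513 ± 0.284 FPKM, the lowest of the 29 members. Egr1 and Nr4a1 were thus even between libraries, within 1.29-fold and 1.43-fold, and Junb and Egr2 differed more, by 2.28-fold and 4.28-fold. Without replicate 2 the ratio of Egr2 was 2.29.

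Jund, a constitutive member of the Jun family, was the highest of the list at 202 ± 56.3 FPKM. Arc, which remodels synapses after activity, varied most among them with 24.97, 46.8, 90.7 and 35.9 CPM. Fos had 7.42, 5.36, 14.03 and 4.53 CPM, and Npas4, an activity-dependent neuronal factor, had 11.7, 7.54, 19.002 and 11.6 CPM. All of these 3 were highest in replicate 3, and without it the ratio of Arc was 1.88 in place of 3.63 and that of Fos 1.64 in place of 3.098. Homer1, a scaffold protein of synapses, had 25.8, 9.33, 35.6 and 13.8 CPM and Nr4a3 had 16.5, 6.68, 20.4 and 7.41 CPM, with replicate 3 highest and replicate 2 lowest. Egr4 and Btg2 were steady, within 1.15-fold and 1.16-fold, and Bdnf, the neurotrophin, had 28.5, 21.1, 21.6 and 19.1 CPM. As a list the deviations were 0.01, -0.12, 0.26 and -0.15, with 15 of 29 members highest in replicate 3, where 27.0% of all records were. At least 2-fold apart were 11 (37.9%), where the share over all records was also 27.0%.

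Clock genes move with the time of day, which the labels do not give. They had deviations of 0.05, -0.28, 0.26 and -0.02, and 0.03, -0.25, 0.22 and -0.01 with the length class subtracted. Of 16 members 8 were highest in replicate 3 and 9 lowest in replicate 2, where the shares over all records were 27.0 and 37.1%. Dbp, the clock output factor, had 155, 229, 197 and 208 CPM, and Per2 had 46.2, 30.4, 58.8 and 34.7 CPM. Hlf varied most, with 36.04, 9.66, 38.7 and 20.1 CPM and a ratio of 4.01 that was 1.92 without replicate 2, and Cry1 was the lowest at 3.41 ± 0.673 FPKM. Per1 and Arntl, which peak at opposite times of day, were both even, with CVs of 6.26% and 9.41%. Glucocorticoid-responsive genes had list means near 0, at 0.06, -0.02, -0.02 and -0.03, but their members went both ways. Of 17 at 1 CPM or more, 9 (52.9%) were at least 2-fold apart, where the share over all records was 27.0%. Fkbp5, a chaperone of the glucocorticoid receptor that hormone exposure induces, had 35.8, 32.4, 31.6 and 32.2 CPM, and Sgk1 had 36.4, 36.2, 31.3 and 40.8 CPM. The metallothionein gene Mt2A was the highest at 57.3 ± 20.7 FPKM, and Mt1 had 6.41, 17.4, 4.09 and 8.17 CPM, with replicate 2 high for both and a ratio for Mt1 that was 1.996 without it. Nr3c2, the mineralocorticoid receptor, varied widely, with 8.84, 0.728, 8.24 and 3.84 CPM, low in replicate 2, and its ratio of 12.1 was 2.301 without that library. Nr3c1, the glucocorticoid receptor itself, has 2 records. The more abundant had 55.1, 47.4, 66.8 and 50.5 CPM, and the other, which varied most of the list, had 3.24, 0.992, 5.54 and 0.755 CPM. Hif3a was the lowest of that list at 0.392 ± 0.112 FPKM.

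Hsp90ab1 was the most abundant chaperone at 686 ± 52.7 FPKM and was even, within 1.19-fold. Its relative Hsp90aa1 stood at 1.26 ± 0.233 FPKM and Hspa8 at 4.86 ± 0.332 FPKM, and both have near-identical copies that can take their reads. Hspa1b, a heat-inducible gene, varied most at 0.467 ± 0.311 FPKM, and Hspa1a is listed at 0. Ifi27 was the only 1 of 16 interferon-response genes above 10 FPKM, at 88.96 ± 15.7 FPKM, and Mx1 was lowest at 0.224 ± 0.0829 FPKM. Rsad2, an antiviral enzyme, varied most of those at 1 CPM or more, with 2.6997, 0.926, 1.95 and 1.37 CPM. MHC genes were low, with 14 of 44 at 1 FPKM or more, RT1-N2 the highest at 15.4 ± 5.45 FPKM and 14 of the 19 members at 1 CPM or more at least 2-fold apart, where the share over all records was 27.0%. That share was larger among low records, at 68.0% for 1 to 3 CPM and 38.7% for 3 to 10 CPM. Tuba1a, the neuronal alpha-tubulin, averaged 540.2 ± 139 FPKM beside Actb at 713 ± 39.9 FPKM, and the actin and tubulin list had deviations of -0.10, 0.33, -0.18 and -0.05.

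A set of gene records was nearly absent from some libraries and well counted in others. The values are those of single records, and for some of these genes another record exists. The 15 named records with the widest ratios, among 11058 with a mean of at least 5 CPM, ran from 40.7-fold for LOC100911034 to 175-fold for LOC100912599. That mean is taken over all libraries, so a record could pass through its high libraries alone. Nhp2, LOC100911822, Hprt1 and LOC679739, among others, each passed 5 CPM only through 1 library. LOC100912599, annotated as similar to the complex I subunit Ndufs6 (chromosome 1, bases 31264755 to 31273159, rn6), had 70.7, 121, 0.692 and 0.892 CPM. LOC679739, annotated as that subunit itself (chromosome 1, bases 32573228 to 32581781, rn6), had 1.21, 1.32, 0.944 and 50.2 CPM. The first was high in replicates 1 and 2 and the second in replicate 4, and replicate 3 was low for both. Tma7, a ribosome-associated gene (chromosome 8, bases 117815725 to 117820413, rn6), had 0.742, 127, 79.6 and 3.36 CPM. LOC100911363, similar to a calpain subunit (chromosome 1, bases 91058529 to 91063928, rn6), had 0.877, 97.8, 53.4 and 1.37 CPM. Those 2 lie on different chromosomes and were high in the same 2 libraries. Nhp2, a protein of the telomerase and small nucleolar particles (chromosome 10, bases 34975708 to 34979082, rn6), had 0.742, 52.7, 0.378 and 0.412 CPM. Without replicate 2 its libraries lay within 1.97-fold. Hprt1, the purine salvage enzyme (chromosome X, bases 158197149 to 158228749, rn6), had 36.9, 0.728, 0.4405 and 0.343 CPM, and without replicate 1 the ratio of 108 was 2.12.

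Other members of that set showed other patterns of high and low libraries. Faah, which breaks down the cannabinoid anandamide, had 0.607, 5.29, 0.378 and 21.96 CPM at its record on chromosome 5, bases 134331929 to 134348995 (rn6). Its second record, at bases 134852875 to 134871775 of the same chromosome, had 20.9, 17.6, 28.6 and 22.2 CPM, a ratio of 1.63. Car3, carbonic anhydrase 3, had 41.5, 19.1, 0.818 and 0.686 CPM. Mrpl30, a mitochondrial ribosomal protein, had 12.01, 17.7, 0.0629 and 15.9 CPM and Ankrd24 had 8.302, 10.7, 0.252 and 10.5 CPM, both low in replicate 3 alone. Sytl2 had 17.5, 0.132, 0.692 and 17.02 CPM, low in replicates 2 and 3. LOC100912106, similar to Pdcd5, had 0.877, 0.198, 20.6 and 29.6 CPM, the reverse of LOC100912599. LOC100911822 had 0.0675, 21.7, 0.0629 and 0.0686 CPM and LOC100911186 had 12.4, 11.7, 0.189 and 0.137 CPM. Of the 15, 4 (Nhp2, Hprt1, Sytl2 and Faah) share their symbol with another record, against 1.17% of named records at that level, and 7 carry a provisional symbol, against 5.42%. The 15 were picked by their ratio, and no test was made of these shares. The second record of Hprt1 had 0.405, 0.265, 1.07 and 0.618 CPM, and that of Sytl2 had 0.810, 1.26, 0.566 and 0.549 CPM. The second record of Nhp2 is listed at 0. The part of reads that can be placed at more than 1 record was not tested.

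**Figure D5:**
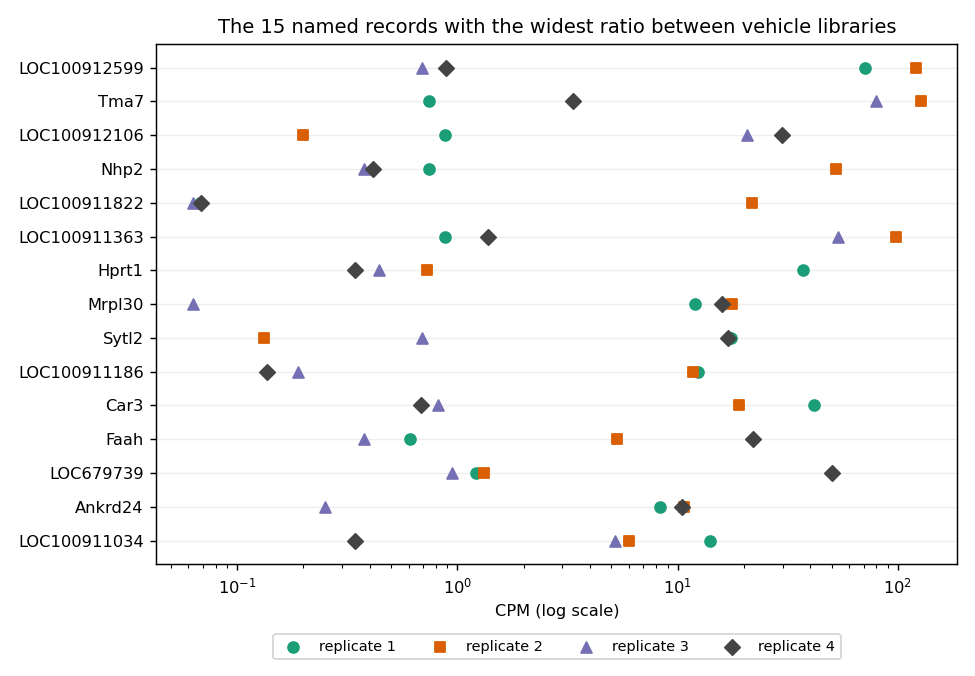
CPM (log axis) in each of the 4 vehicle libraries for the 15 named records with the widest ratio of highest to lowest library, widest at the top. Most records have their libraries in 2 separate groups, for example LOC100912599 at 0.692 and 0.892 CPM against 70.7 and 121 CPM.

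Genes that set 1 library apart from the other three were read in the same way, also at a mean of at least 5 CPM. Among those high in 1 library, Mff, Brd2, M6pr and Hnrnpab passed that mean only through that library. In replicate 1, Zmiz2, a transcriptional coregulator, was low with 4.99, 57.6, 30.3 and 41.6 CPM, and Chchd10, a mitochondrial intermembrane protein, was low with 23.3, 131, 119 and 164 CPM. In replicate 2, Tshz2, a zinc finger factor, was low with 62.7, 9.46, 55.1 and 54.2 CPM, and Ildr2 with 19.4, 1.46, 27.6 and 10.8 CPM. Without replicate 2 the libraries lay within 1.16-fold for Tshz2 and 2.55-fold for Ildr2. In replicate 3, the bromodomain gene Brd2 was high with 2.497, 5.89, 22.5 and 1.99 CPM, as was Mff, a mitochondrial fission factor, with 1.28, 1.12, 17.5 and 0.755 CPM. Fam131a was low there, with 63.8, 30.7, 8.93 and 26.4 CPM. In replicate 4 the farthest records above were LOC679739, AC096370.2 and RGD1564447, and those below were LOC100911746, LOC100911034 and LOC100911597, none of them with an established symbol. In replicate 1, M6pr and Hnrnpab were high beside Hprt1, with 15.3, 2.78, 2.01 and 4.53 CPM and 11.3, 3.51, 2.71 and 3.29 CPM.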

How the data were processed

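RNA of prefrontal cortex was measured in 4 vehicle libraries. The authors deposited whole-number read counts per gene record, not normalized, and FPKM values, which are fragments per length and library size, per the file headers. The build was rn6, and featureCounts 1.5.0-p3, StringTie 1.3.3b and HISAT2 2.0.5 are named without roles, according to the submitters' processing notes. How strand was set in counting was not stated in these sources, so overlapping and antisense records, and near-identical copies, can share or lose reads. The FPKM values implied library sizes of 1.07, 0.933, 1.06 and 1.01 times the count totals in replicates 1 to 4. The TMM factors had the same order, at 1.05, 0.922, 1.03 and 1.00, so the FPKM are not an unscaled measure.

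Levels are the deposited FPKM. Unnamed assembled transcripts took 2.18 to 2.30% of counts and stayed in the totals. Counts were scaled by TMM factors in edgeR 4.0.16 (R 4.3.3), a record under 3 counts was set to 3 counts in ratios, and 0.5 CPM was added before logs. Ratios, CVs and deviations use records with a mean of at least 1 CPM, and the biological coefficient of variation was estimated with estimateDisp without a design beyond the mean, after filterByExpr, which left 14533 records. There is 1 group, so no difference between groups was tested and no p-value is given; Dixon's limit served only to pick values for a closer look. Alternatives were DESeq2 1.42.0 size factors, other filters, offsets and summaries, and leaving out each library. The other 24 sample columns of the tables were not used.

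Genes named in the text were drawn from the 15 nuclear and the mitochondrial records of highest FPKM, 42 gene lists, the 15 widest ratios at a mean of at least 5 CPM, the 3 records farthest above and below in each library, and the 10 lowest CVs at a mean of at least 50 CPM. Some genes that these rules named are not reported here. The lists, and the choice of these libraries, were made with earlier results of these data known. Promoter windows come from RefSeq (GRCr8), and rn6 coordinates are those of the deposited table.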

Additional observations from a re-analysis of the deposited data

Results flagged for a closer look

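A library counted as standing apart where its gap to the nearest of the other libraries took more of the whole range of the 4 values than Dixon's 95% limit allows. Chance alone does this in about 1 in 20 groups of 4, and over all 15199 records at 1 CPM or more it happened in 909, or 5.98%. Of 8 library measures and 42 list deviations 2 did so. The gene records described in the text that did so follow, and since several were described for being far from the other libraries, their number is not set against that share.

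Among the library measures, counts on unnamed transcripts took 2.30% in replicate 3 and 2.18 to 2.19% in the other libraries. Among the lists, glucocorticoid-responsive genes deviated by 0.060 log2 units in replicate 1 and by -0.03 to -0.02 in the others.

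In replicate 2, the haemoglobin genes Hba1 and Hbb stood at 1287 and 643 CPM, against 521 to 617 and 276 to 328 CPM elsewhere. S100a9 stood at 3.64 CPM there, against 0.315 to 0.549 CPM. The neuropeptide gene Cartpt was at 14.8 CPM, against 0.810 to 1.20 CPM. Nhp2 was at 52.7 CPM and LOC100911822 at 21.7 CPM, with all other libraries under 1 CPM. Both, like S100a9 and Cartpt, reached a mean of 1 CPM only through replicate 2. Doc2g was at 7.48 CPM, against 5.74 to 5.90 CPM, and a second record of Rps29 at 2.38 CPM, against 1.42 CPM or less. Replicate 2 was low for Tshz2, at 9.46 CPM against 54.2 to 62.7 CPM, and for Cplx2, a complexin of excitatory terminals, at 240 CPM against 624 to 672 CPM.

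In replicate 3, the receptor subunit genes Gabrb2 and Grin2b stood at 29.4 and 36.2 CPM, against 5.89 to 9.65 and 17.4 to 17.7 CPM in the other libraries. Mff was at 17.5 CPM there, Rorb at 6.42 CPM and Htr1b at 5.73 CPM, all above the other libraries. Prkcd was low there, at 11.5 CPM against 18.1 to 18.7 CPM.

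In replicate 1, Hprt1 was at 36.9 CPM, Hnrnpab at 11.3 CPM and Tph2 at 2.50 CPM, each above the other libraries. Hprt1 and Tph2 reached a mean of 1 CPM only through replicate 1, with 0.343 to 0.728 and 0.881 to 1.06 CPM elsewhere. In replicate 4, LOC679739 stood at 50.2 CPM against 0.944 to 1.32 CPM, Lamp5 at 343 CPM against 234 to 246 CPM, and the elongation factor gene Eef1a1 at 1457 CPM against 1266 to 1287 CPM.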

How the results depend on the processing

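The measures of spread moved with the filter on low counts, the ratio required, the estimator and the presence of replicate 2. Records at least 2-fold apart numbered 1244 at a mean of at least 10 CPM, 7529 with no filter and 8266 at a ratio of at least 1.5, against 4098. Leaving out each library gave 2055 to 3608, lowest without replicate 2. The median CV was 0.155 at 10 CPM and 0.311 with no filter, and 0.134 to 0.211 with each library left out, lowest without replicate 2. The biological coefficient of variation was 0.314 with no filter, 0.169 as the median of DESeq2 gene-wise dispersions and 0.192 to 0.290 with each library left out. Lists with a range of at least 0.5 numbered 9 of 42 with the length class subtracted, an alternative chosen after seeing the data, and 4 to 17 with each library left out. DESeq2 size factors kept all 4 of these measures within 1.5 times, and so did the other scalings for those they were run on, which leave out the biological coefficient of variation; and library totals alone shifted replicate 2 by -0.12 and replicate 1 by 0.07 for all genes. Detected genes numbered 12683 to 16825 under other thresholds and 14414 to 14562 with each library left out. Of 2632 further values for lists and genes under an alternative, 107 moved, most of them gene ratios without 1 library. A gene ratio counted as moved past 1.5 times. A list value did so when it shifted by at least the SD of its list over the libraries, so wide lists had wide limits. The total includes 209 gene ratios under each other scaling and the FPKM. None of those moved, and such settings change all genes of a library nearly alike, so the total says little about robustness. By list, replicate 2 stood at -0.86 and replicate 3 at 0.01 for choroid plexus genes at 10 CPM. At 1 CPM these were -0.09 and -0.50, over only 3 members. The causes were not tested. No paired analysis was possible because only 1 group was described. With 4 libraries a CV of a single gene is itself imprecise, and low genes are limited by depth.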
